A study of Mus musculus with 8 samples.

Results

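The comparison described here is the passage from undifferentiated embryonic stem (ES) cells to embryoid bodies in mouse cells labelled as carrying extra Bmi1. Its members are the arrays whose titles name Bmi1 at either stage, which are 4 of the 8 arrays of the series, 2 of ES cells and 2 of embryoid bodies. All cells were CCE, an ES cell line of strain 129/Sv that is grown on gelatin with leukaemia inhibitory factor (LIF). The cells labelled Bmi1 had received a lentivirus with the mouse Bmi1 cDNA and an eGFP marker and had been sorted for eGFP. Embryoid bodies, which are aggregates that differentiate in suspension, were harvested after 10 days in bacterial Petri dishes. The other 4 arrays were 2 of embryoid bodies with the empty vector, 1 of untreated ES cells and 1 of empty vector ES cells. All 8 were hybridised to Affymetrix mouse arrays, and values are the deposited log2 levels, on which a difference of 1 is a 2-fold change. Nothing in the labels says that the 2 arrays of a group came from separate cultures, so p-values measure the spread between arrays, which may be technical.

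Leukaemia inhibitory factor holds mouse ES cells in a state kept by a network of transcription factors around Pou5f1 (Oct4), Sox2 and Nanog. When the factor is withdrawn and the cells aggregate, they leave that state and form cells of all germ layers, among them beating heart muscle, primitive blood, vessels, mesenchyme and yolk sac-like endoderm. Bmi1 is a subunit of Polycomb repressive complex 1, which marks histone H2A and keeps developmental genes silent, and it is best known for sustaining stem cells of blood and brain and for repressing the Cdkn2a locus.

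Bmi1 itself was read first, as the gene that the virus carried. Its level was 7.48 and 8.51 on the embryoid body arrays labelled Bmi1 and 5.68 and 6.28 on the ES cell arrays labelled Bmi1. Both embryoid body arrays lay above both ES cell arrays, with a difference of 2.02 ± 0.37 (log2, standard error, n = 2 and 2 arrays; limma, adjusted p = 0.0031). The other Bmi1 probe set rose by 3.51. Against the labels, Bmi1 was lower in the samples labelled Bmi1 than in the other samples of the same stage: vector embryoid bodies had 9.35 and 9.67, and control ES cells 7.41 and 7.74. Whether either probe set can detect the lentiviral cDNA was not analysed here, and whether labels were exchanged was not tested. The samples are therefore called by their label throughout, and each value belongs to the samples so labelled.

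By value distribution the arrays formed 3 sets: all ES cells, both embryoid bodies numbered 1, and both embryoid bodies numbered 2. Sorted values differed by a mean of 0.0099 to 0.0325 for the 8 pairs inside a set and of 0.189 to 0.442 for the 20 other pairs. Stage and array set therefore cannot be told apart. The 95th percentile of all probe sets was 11.21 and 11.22 on the ES cell arrays labelled Bmi1 and 10.25 and 10.49 on the embryoid body arrays, and bright genes were on average lower in embryoid bodies. For that reason many of the differences are given as deposited and again after quantile normalization, which forces all 8 arrays to 1 distribution. A difference or count given without a normalized value is on the deposited scale only.

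A large share of the tested genes differed between the stages. Of 12982 genes bright enough to test, 7688 (59.2%) differed between embryoid bodies and ES cells labelled Bmi1 (limma, adjusted p under 0.05). Without the filter on dim genes 8658 of 18193 were called, and without 1 array 5236 to 8496 of the 12982. Of these, 2750 were higher in embryoid bodies, which is 21.2% of the genes tested, and 4938 were lower, which is 38%. The 2 embryoid body arrays did not overlap the 2 ES cell arrays in 10525 genes (81.1%). The median difference of all genes was -0.27, and it ran from 0.65 in the dimmest 10% of genes to -1.01 in the brightest 10%. After quantile normalization the median was -0.03 and the 2 ends were 0.31 and -0.06, and the calls were 3118 higher and 3475 lower. The share of calls that were higher was 35.77% as deposited, 47.29% after quantile normalization and 22.83% with each array centred on its median. After quantile normalization 1734 of the genes called lower were no longer called lower, and 17 of them were called higher.

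**Figure D1:**
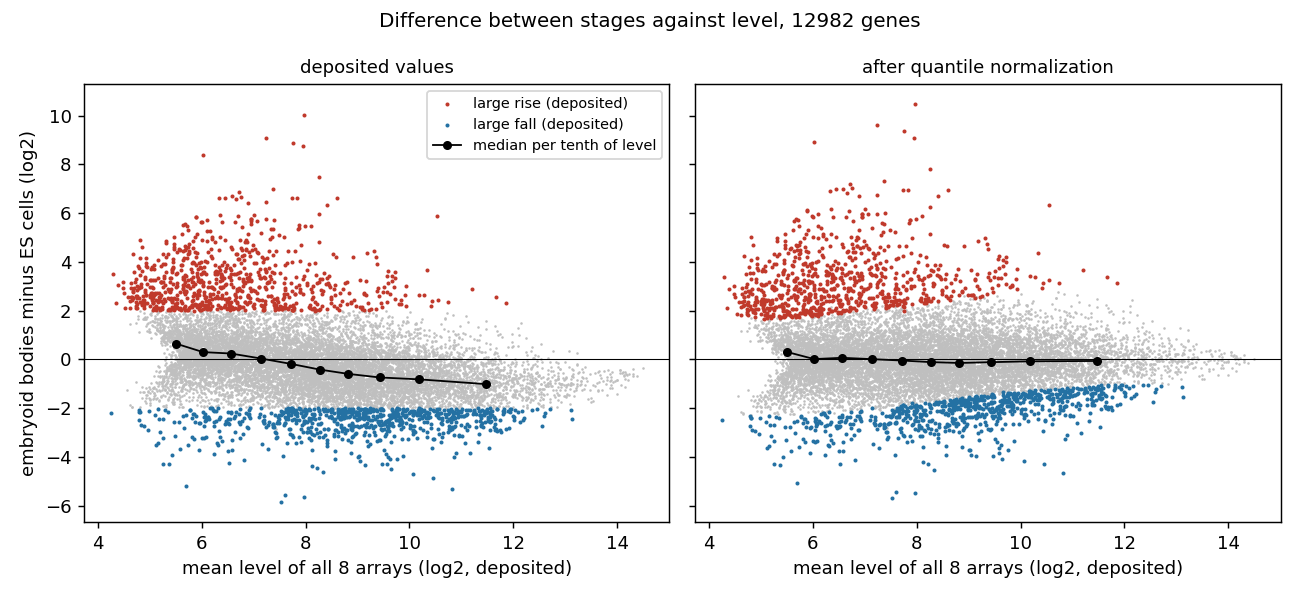
Difference between stages (embryoid bodies minus ES cells, log2) against the mean level of all 8 arrays, for 12982 genes, as deposited on the left and after quantile normalization on the right. Grey points are genes, red and blue points the large rises and falls, and the black line joins the medians of 10 groups of genes by level; it slopes from 0.65 to -1.01 as deposited and from 0.31 to -0.06 after normalization.

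Large changes, which were called differences of at least 2 log2 units (4-fold) with no overlap between the groups, numbered 1563 (12% of the genes tested). There were 794 large rises (6.12%) and 769 large falls (5.92%). Quantile normalization gave 842 large rises and 456 large falls, and median centring gave 596 and 1339. Large changes in both the deposited and the quantile-normalized values numbered 708 rises and 406 falls, a count added after the data had been seen. The root mean square difference over genes was 0.51 between the 2 embryoid body arrays labelled Bmi1, 0.27 between the 2 ES cell arrays labelled Bmi1 and 1.38 between the means of the 2 stages.

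The largest rise was that of Col3a1, a fibrillar collagen of loose connective tissue. Col3a1 read 12.96 and 12.97 in embryoid bodies and 2.80 and 3.06 in ES cells, so its levels went from the bottom to near the top of the arrays' range. The difference was 10.04 ± 0.29 (limma, adjusted p = 1.4e-05), and 10.49 after quantile normalization. The ES cell values of Col3a1, Afp and Serpinb9g lay below their arrays' percentile 5 (3.11 and 3.12), and the files give no background level, so their differences are differences of signal and no fold in RNA is given. Next came Afp, the fetal serum protein made by yolk sac endoderm and fetal liver. Afp was at 12.37 and 11.45 in embryoid bodies and at 2.84 and 2.79 in ES cells, a difference of 9.10 ± 0.29. Cdh11, the cadherin of mesenchymal cells, rose from 3.24 and 3.20 to 12.05 and 12.14. Lum, a small proteoglycan that binds collagen fibrils, rose from 3.72 and 3.76 to 13.01 and 11.98. Serpinb9g, a member of the serine protease inhibitor family, rose by 8.39 ± 0.54, from 2.96 and 2.93 to 11.23 and 11.43. In each of these 5 genes the lowest embryoid body array lay more than 8 log2 units above the highest ES cell array.

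The rest of the 20 largest rises lay between 5.95 (Meis2) and 7.49 (Postn). They held other mesenchymal genes: Postn, a matrix protein, Col1a2 (6.62) and Col1a1 (6.47), the chains of type I collagen, and Pdgfra (6.62), the receptor that marks mesenchymal and paraxial mesoderm cells. Transcription factors among them were Hand2 (6.98), which acts in heart and limb formation, Snai2 (6.35), which drives epithelial to mesenchymal change, Maf (6.43) and Meis2. Another probe set of Hand2 rose by 1.07, and the other bright probe sets of Maf ran from -0.30 to 5.17. Hbb-y (6.68), the embryonic beta-like globin, stood beside Nrp1 (6.63), a co-receptor for semaphorins and vascular growth factors. Rtp4 (6.71) and Usp18 (6.60) are interferon-inducible genes. Vnn1 (6.87), a pantetheinase, Ctla2a (6.61) and Gpr50 (6.56) completed the group.

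The largest fall was that of Gbx2, a homeobox gene that acts in the ES cell network. Gbx2 read 4.78 and 4.33 in embryoid bodies and 10.24 and 10.59 in ES cells, a difference of -5.86 ± 0.24 (limma, adjusted p = 3e-05) and of -5.70 after quantile normalization. Slc27a2, a fatty acid transporter and acyl-CoA synthetase, fell by 5.62, and Nefh, the heavy neurofilament chain, fell by 5.58. Pou5f1, the central pluripotency factor, was among the brightest genes of the ES cells at 13.39 and 13.28 and stood at 7.80 and 8.26 in embryoid bodies. Its difference was -5.30 ± 0.56, a 39.4-fold fall, and -4.65 after quantile normalization. The groups did not overlap in any of these 4 genes, which the rule for large changes requires.

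Further down the 20 largest falls were other genes known from ES cells and early embryos: Dnmt3l (-4.51), a cofactor of the de novo DNA methyltransferases, Nr0b1 (-4.31), an orphan receptor that binds Oct4, Tcf15 (-4.29), Gdf3 (-4.16), a ligand of the Nodal family, and Etv5 (-4.10), an ETS factor downstream of FGF. Etv5 differed most between the 2 embryoid body arrays, at 6.08 and 8.73, against 11.51 on both ES cell arrays, and its adjusted p was 0.018 by limma. The call was lost without replicate 1 of the embryoid bodies (-2.78) and without either ES cell array. Also there were Nefl (-4.31), the light neurofilament chain, Nptx2 (-4.15), a neuronal pentraxin, Pcolce2 (-4.45), Eprn (-4.63), Rbmxl2 (-4.36), Tnfsf11 (-4.29) and 4930444M15Rik (-4.27). In 4 others the probe sets of the gene differed widely: those of Hsf2 ran from -5.17 to 0.79, of Alyref from -4.88 to -1.03, of Hnrnpl from -4.68 to -0.05, and of Krt17 from -4.29 to 0.33. The transcripts behind the disagreeing probe sets were not analysed here.

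**Figure D2:**
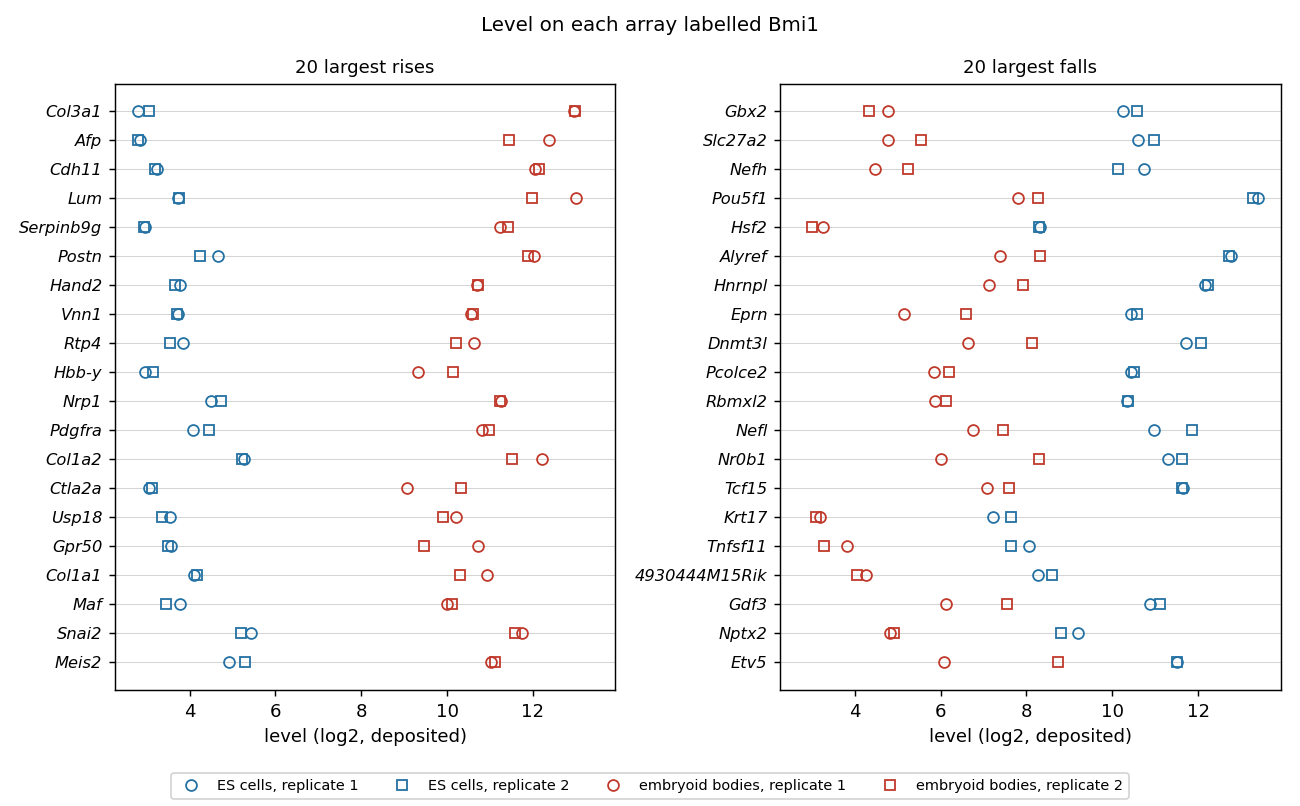
Deposited log2 level of the 20 largest rises (left) and 20 largest falls (right) on each of the 4 arrays labelled Bmi1; circles are replicate 1, squares replicate 2, blue ES cells and red embryoid bodies. In every row the red and blue symbols are apart, which the rule for large changes requires; Etv5, at 6.08 and 8.73 in embryoid bodies, shows the widest gap between replicates.

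To show the CG content before the start sites of rising and falling genes, the windows of the 3 largest rises and the 3 largest falls with an entry are printed. They are the 100 bases before the first listed start, from the RefSeq promoter table of build GRCm38.p6, 5′ to 3′ on the gene's strand, with CG dinucleotides in capitals.
Col3a1, chr1:45311438-45311537, plus strand: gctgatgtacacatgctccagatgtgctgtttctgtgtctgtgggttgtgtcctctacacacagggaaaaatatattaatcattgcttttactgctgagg
Afp, chr5:90490614-90490713, plus strand: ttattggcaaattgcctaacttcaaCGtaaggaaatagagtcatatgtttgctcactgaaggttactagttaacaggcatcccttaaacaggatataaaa
Serpinb9g, chr13:33484690-33484789, plus strand: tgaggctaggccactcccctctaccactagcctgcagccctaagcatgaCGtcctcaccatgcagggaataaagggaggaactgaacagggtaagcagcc
Gbx2, chr1:89931177-89931276, minus strand: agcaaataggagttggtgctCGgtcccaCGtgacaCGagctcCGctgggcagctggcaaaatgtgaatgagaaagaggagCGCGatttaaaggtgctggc
Slc27a2, chr2:126552924-126553023, plus strand: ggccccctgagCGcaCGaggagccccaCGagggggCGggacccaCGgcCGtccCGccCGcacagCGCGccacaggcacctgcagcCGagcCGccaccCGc
Pou5f1, chr17:35505932-35506031, plus strand: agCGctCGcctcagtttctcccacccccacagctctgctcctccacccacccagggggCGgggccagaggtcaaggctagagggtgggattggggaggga
The windows of the rising genes hold 0 CG (Col3a1) or 1 CG (Afp and Serpinb9g), and those of the falling genes 6 (Gbx2), 13 (Slc27a2) and 3 (Pou5f1). Over the 250 bases before the start, the median ratio of observed to expected CG was 0.50 in the 598 large rises with an entry, 0.74 in the 637 large falls and 0.72 in all 10444 tested genes with an entry. The median number of CG was 10, 16 and 16 in the same order. Pou5f1, at 0.334 and 8 CG, lay below the medians of the large rises, unlike Gbx2 (0.76) and Slc27a2 (0.754). The letters TATAAA, on the gene's strand, were in 9.7% of the large rises, 4.24% of the large falls and 4.17% of the tested genes, and in 8.12% of all 27025 windows of the table. A match of letters describes the window and says nothing about a factor bound there.

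Genes of the pluripotency network fell together. Of 16 core factors tested, 14 were called lower and all 14 were large falls, against 38% called lower and 5.92% large falls among all genes, and none was called higher. The median difference of the list was -2.83, beside -0.27 for all genes, and -2.20 after quantile normalization, where 10 were called lower. Esrrb, an orphan receptor that stabilises the network, was at 6.14 and 8.15 in embryoid bodies and at 10.86 and 10.54 in ES cells, a difference of -3.56 ± 0.86. Nanog was at 8.51 and 10.09 against 12.56 and 12.21, a difference of -3.09 ± 0.88 (limma, adjusted p = 0.02), and its adjusted p was 0.072 after quantile normalization. Without replicate 1 of the embryoid bodies the differences were -2.55 for Esrrb and -2.30 for Nanog, and neither was called. Klf5 (-3.16) and Nr5a2 (-3.01) also fell; the probe sets of both ran to a small positive difference (0.30 and 0.51). Prdm14, at 6.34 and 8.06 against 8.15 and 8.05, was not called (-0.90 ± 0.77, adjusted p = 0.34). In Prdm14 the replicate 2 embryoid body array was as high as the ES cells.

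Of 17 other ES cell markers 15 were called lower, 13 of them large falls, beside 38% and 5.92% of all genes. Their median was -3.11, and -2.67 after quantile normalization. Lefty1 (-4.07), an inhibitor of Nodal, read 7.61 and 8.04 in embryoid bodies and 12.29 and 11.49 in ES cells. Eras (-3.98), an ES cell Ras protein, L1td1 (-3.65), an RNA-binding protein, and Fgf4 (-3.37), the growth factor that primes ES cells to differentiate, fell as well. Rex2, at 5.27 and 6.78 against 6.17 and 5.77, showed no call (0.05 ± 0.59).

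The 2 embryoid body arrays labelled Bmi1 held these genes at different levels. The mean level of the core factors was 8.02 on replicate 1 and 9.16 on replicate 2, against 11.44 and 11.40 in ES cells, and that of the other markers was 7.46 and 8.74 against 11.09 and 10.99. Replicate 2 was higher in 15 of the 16 core factors, by a median of 1.05, and in 17 of 17 other markers, by a median of 1.24. Over all genes it was higher in 64.3%, by a median of 0.16. After quantile normalization the medians were 0.87, 1.02 and -0.05. In vector embryoid bodies, which fell into the same array sets, replicate 2 was above replicate 1 in the core factors by a median of 1.84. In bulk RNA, fewer cells of a type and less RNA per cell cannot be told apart, here or in any result below.

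**Figure D3:**
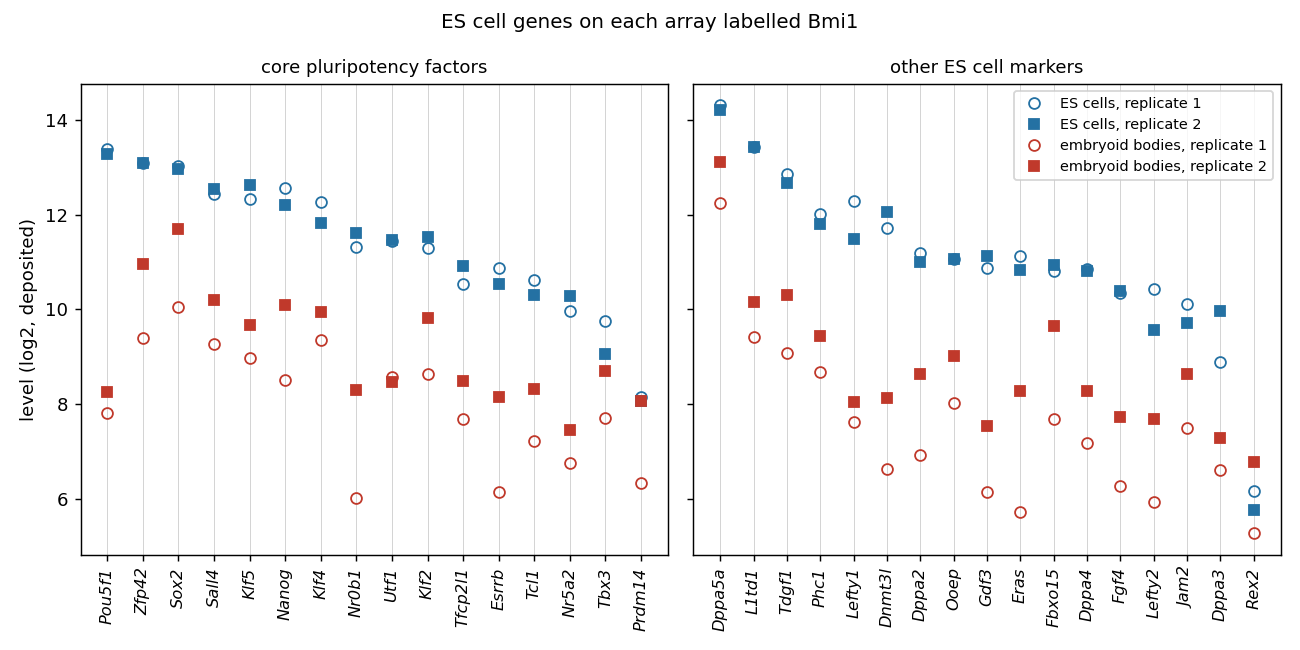
Deposited log2 level of 16 core pluripotency factors (left) and 17 other ES cell markers (right) on the 4 arrays labelled Bmi1; blue is ES cells, red embryoid bodies, open symbols replicate 1 and filled symbols replicate 2. Most red symbols lie below the blue ones, and filled red lies above open red in 15 of the 16 factors and 17 of the 17 markers.

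Most genes of the list for DNA methylation and demethylation fell. Of 9 tested, 7 were called lower, 5 of them large falls, beside 38% and 5.92% of all genes, and 1 was called higher. The median was -2.15 as deposited and -1.42 after quantile normalization. Uhrf1, which guides the maintenance enzyme to replicated DNA, read 8.05 and 9.42 in embryoid bodies and 12.10 and 11.89 in ES cells (-3.26 ± 0.57). Tet1, which oxidises methylcytosine, fell by 3.25, and so did the de novo enzyme Dnmt3b (-2.43) and the maintenance enzyme Dnmt1 (-2.15). Mbd3, a subunit of the NuRD complex, fell by 2.36, while Mbd2, its counterpart that binds methylated DNA, rose by 1.65.

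Genes of the Polycomb complexes, to which Bmi1 belongs, moved both ways. Of 17 genes of complex 1, 5 were called higher, beside 21.2% of all genes, and 5 lower, beside 38%. The median was near 0. After quantile normalization 8 were called higher and 6 lower, beside 24% and 26.8% of all genes. Besides Bmi1, Yaf2 rose by 1.88, Phc3 by 1.63, and both are subunits of the complex. L3mbtl2 fell by 2.46 ± 0.33, from 10.10 and 10.08 to 7.32 and 7.93, and Pcgf6 fell by 1.54; both belong to a variant form of complex 1. Cbx7, the chromobox subunit that prevails in ES cells, fell by 1.97, and Cbx6 fell by 1.50. Pcgf1 was at 5.62 and 5.66 against 6.56 and 6.56, a difference of -0.92. Pcgf2 (Mel18), the closest relative of Bmi1, was at 7.03 and 6.67 against 6.81 and 6.90 and was not called. Of 11 genes of complex 2, which methylates histone H3, 6 were called lower and 2 higher, beside 38% and 21.2% of all genes. Eed (-1.89), Suz12 (-1.49), Jarid2 (-1.26) and the methyltransferase Ezh2 (-1.09) fell, whereas Ezh1, its relative in resting cells, rose by 0.55 and Phf19 by 0.86. These genes are bright in ES cells, and after quantile normalization the list's median went from -0.93 to 0.07: only Eed of the 11 stayed called lower (-0.93), with Suz12 at -0.56 and Ezh2 at -0.17.

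Cdkn2a, whose cell cycle inhibitors are known targets of Bmi1, was called lower (-0.91 ± 0.18). In samples labelled Bmi1 it was at 3.96 and 3.83 in embryoid bodies and 4.81 and 4.81 in ES cells, each below its array's median. Cdkn2a was tested only because at least 2 vector or control arrays lay above theirs. Its neighbour Cdkn2b rose by 1.73, Rbl2, a relative of the retinoblastoma protein, by 1.26, and Cdkn1a (p21) by 0.86. Of 10 inhibitors tested, 3 were called higher and 1 lower, beside 21.2% and 38% of all genes. After quantile normalization 7 were called higher, beside 24% of all genes.

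Mesenchyme and matrix genes had the largest share of members called higher among the 33 lists. Of 22 tested genes of this list, 21 were called higher, against 21.2% of all genes, and 17 were large rises, against 6.12%. The median was 3.79, and 3.83 after quantile normalization, where 21 were again called higher. The list holds Col3a1, Lum, Postn, Col1a2, Col1a1 and Pdgfra, described above. Col3a1 and Lum lay below the ES cell arrays' medians of 5.57 and 5.61. For members as dim as these the filter partly fixed the direction of the call. Its 1 member not called was Thy1, at 6.13 and 5.99 against 6.44 and 6.09 (-0.21 ± 0.25). Of 10 factors of epithelial to mesenchymal change and mesenchymal cadherins, 8 were called higher and none lower, beside 21.2% and 38% of all genes. Large rises numbered 6, beside 6.12% of all genes. The mean level of these 10 genes in ES cells was 5.45 and 5.42, below the arrays' medians of 5.57 and 5.61. Genes dim in ES cells pass the filter mainly where they are brighter, so it partly fixed that direction. Snai2 and Cdh11 were joined by Twist2 (3.60), Foxc2 (3.33), Zeb1 (2.49) and Zeb2 (2.15), the latter 4 all transcription factors of mesenchyme. Foxc2 was uneven between embryoid bodies, at 6.12 and 7.65 against 3.61 and 3.51. The fibronectin receptor chain Itga5, at 6.10 and 6.40 against 6.38 and 6.69, was not called.

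Basement membrane genes were mixed. The collagen IV chains Col4a2 (3.42 ± 0.47) and Col4a1 (2.36 ± 0.27) and the vascular laminin Lama4 (2.55) rose, while Lamc1 (-1.22), Nid2 (-1.17) and Lama5 (-1.12) were called lower; of these, Nid2 and Lama5 lost the call after quantile normalization. In all, 6 of 12 were called higher and 3 lower, beside 21.2% and 38% of all genes. Hspg2 (perlecan), at 9.10 and 8.55 against 8.85 and 9.11, was not called.

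Heart muscle genes rose on both embryoid body arrays. Of 17 tested, 14 were called higher, 11 of them large rises, beside 21.2% and 6.12% of all genes. All 17 had a positive difference, with a median of 3.46, and of 3.55 after quantile normalization. The tested members' mean level in ES cells was 5.18 and 5.10, below the arrays' medians of 5.57 and 5.61, and 3 members were too dim to test. Genes dim in ES cells pass the filter mainly where they are brighter, so it partly fixed the direction of these calls. Tnnt2, cardiac troponin T, read 8.82 and 9.17 in embryoid bodies and 3.25 and 3.06 in ES cells (5.84 ± 0.33). Myl7, the atrial light chain, rose by 5.76, Myh6, the alpha myosin heavy chain, by 5.56, Actc1, cardiac actin, by 5.39, and Myl2, the ventricular light chain, by 4.16. Myh6 was less even in ES cells, at 5.74 and 4.70, than in embryoid bodies, at 10.66 and 10.90. Tnni3, cardiac troponin I, a late gene of the heart, was at 6.30 and 6.95 against 6.08 and 5.86 and was not called.

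Smooth muscle genes split. Acta2, smooth muscle actin, rose from 7.61 and 8.25 to 11.53 and 11.57 (3.62 ± 0.25), Mylk, myosin light chain kinase, by 3.74 and Actg2, enteric actin, by 2.03. Tagln (SM22) went the other way, from 10.11 and 11.07 in ES cells to 8.49 and 8.39 (-2.15 ± 0.41), and in vector and control samples its difference was 0.98. Smtn (-1.68) and Cnn2 (-1.08) were called lower too, the latter not after quantile normalization. Of 12 tested, 4 were called higher and 3 lower, beside 21.2% and 38% of all genes. Myl9, at 8.62 and 8.81 against 8.70 and 8.92, was not called.

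Genes of the primitive streak, the transient source of mesoderm, had similar mean levels at both stages, 6.06 and 5.94 in embryoid bodies and 5.93 and 5.93 in ES cells. Of 16 genes named on the array 7 were too dim to test. Of the 9 tested 2 were called higher and 2 lower, beside 21.2% and 38% of all genes. Hand1, a factor of extraembryonic mesoderm and heart, rose by 1.88, and Foxf1, of splanchnic mesoderm, by 0.95. Cdx1 was at 4.63 and 4.25 against 5.48 and 5.66, and Mesp2 at 6.03 and 5.64 against 7.07 and 6.44; both were called lower. Eomes, at 5.24 and 6.55 against 6.07 and 6.31, was not called.

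Blood genes rose, mostly those of macrophages and of the embryonic globins. Of 17 tested macrophage and leukocyte genes, 13 were called higher, all large rises, beside 21.2% and 6.12% of all genes, and none lower. The median was 2.97, and 2.87 after quantile normalization, where 11 were called. The tested members' mean level in ES cells was 4.97 and 4.94, below the arrays' medians of 5.57 and 5.61, and 3 members were too dim to test. As for heart muscle genes, the filter partly fixed the direction of these calls. Ctss, a lysosomal protease of macrophages, rose by 5.62 ± 0.74. Csf1r, the receptor on which macrophages depend, was at 10.33 and 9.53 against 4.81 and 4.66, a difference of 5.19. Its other bright probe sets had differences of 1.90 and 0.28. Ptprc (CD45), the common leukocyte marker, rose by 3.96, Cd52 by 4.47, the complement gene C1qb by 3.58 and Adgre1 (F4/80) by 3.57. Cd68, at 6.49 and 6.78 against 6.23 and 6.23, was not called.

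Among red cell genes, Hbb-y read 9.32 and 10.13 against 2.96 and 3.14. The other embryonic globins rose less: Hbb-bh1 by 3.94 ± 0.46, from 4.87 and 4.50 to 8.06 and 9.19, and Hba-x by 2.11 ± 0.38. Of 14 genes named on the array 7 were too dim to test. Of the other 7 only these 3 were called higher, beside 21.2% of all genes. Klf1, the erythroid factor, was called lower (-0.91), at 5.52 and 5.04 against 6.42 and 5.95. Tfrc, the transferrin receptor, was called lower as deposited (-0.68) and had a difference of 0.35 after quantile normalization, and its probe sets ran from -0.68 to 2.17. Gfi1b was at 6.36 and 5.92 against 6.11 and 6.27.

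Of 15 blood transcription factors 9 were called higher and 1 lower, beside 21.2% and 38% of all genes, and 3 were large rises, beside 6.12%. After quantile normalization 6 were called higher and 1 lower, beside 24% and 26.8% of all genes. Fli1, an ETS factor of blood and endothelium, rose from 2.75 and 2.67 to 7.38 and 7.75 (4.86 ± 0.21). Meis1, a partner of Hox proteins, rose by 3.52, Lyl1 by 2.11, the lymphoid and myeloid factor Ikzf1 by 1.60 and Gata1, of red cells and platelets, by 1.57. Etv6 fell by 1.21. Tal1, at 5.64 and 6.60 against 6.06 and 5.94, was not called. The platelet chemokine Pf4 rose by 4.10 ± 0.45 and its neighbour Ppbp by 3.81 ± 0.56, the latter from 3.14 and 3.35 to 6.05 and 8.05. F2r, the thrombin receptor, which is not limited to platelets, rose by 1.18, and Itga2b by 0.87. The mast cell gene Hdc, at 6.22 and 5.65 against 5.88 and 6.08, was not called. Of 13 megakaryocyte and mast cell genes named on the array 5 were too dim to test. Of the 8 tested, 4 were called higher, beside 21.2% of all genes, and none lower.

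Endothelial genes rose in part. Of 17 tested, 9 were called higher, 7 of them large rises, and 1 lower. Among all genes 21.2% were called higher, 6.12% were large rises and 38% were called lower. The median was 0.75, and 0.42 after quantile normalization. Sox17, a factor of arterial endothelium and of endoderm, read 8.10 and 8.64 against 3.32 and 3.51 (4.95 ± 0.28), and the surface sialomucin Emcn 7.61 and 7.90 against 3.30 and 3.34. Cdh5, the endothelial cadherin, rose by 2.23, Cldn5 by 2.22, the VEGF receptor Kdr by 2.13 and Icam2 by 2.10. Egfl7 was called lower (-0.78) and lost the call after quantile normalization. Flt4, the lymphatic VEGF receptor, at 6.79 and 6.62 against 6.70 and 6.47, was not called.

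Endoderm genes rose in part. Of 15 tested, 9 were called higher and 1 lower, beside 21.2% and 38% of all genes. Large rises numbered 5, beside 6.12% of all genes, and the median was 1.20. After quantile normalization 7 were called higher, beside 24% of all genes, and the median was 0.87. Of 20 genes named on the array 5 were too dim to test. The tested members' mean level in ES cells was 5.57 and 5.41, against the arrays' medians of 5.57 and 5.61. For the members dim in ES cells the filter partly fixed the direction of the call. Gata6, the factor of primitive endoderm and heart, rose from 4.49 and 4.99 to 9.80 and 9.91 (5.11 ± 0.31), Foxa1 by 4.51 and Foxa2 by 2.25, both pioneer factors of endoderm. Foxa2 was not called without replicate 2 of the embryoid bodies (1.89). Ttr, a serum carrier made by visceral endoderm, rose by 2.10, and its probe sets ran from 2.10 to 6.65. Rbp4, the retinol carrier, rose by 1.98. Amn, a receptor subunit of visceral endoderm, was at 5.14 and 4.90 against 7.15 and 6.22 and was called lower (-1.67). Apom was not called (0.34 ± 0.26).

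Genes known from trophoblast rose, although several of them are active in other tissues. Of 10 genes named on the array 3 were too dim to test. Of the 7 tested, 6 were called higher and 1 lower, beside 21.2% and 38% of all genes. Large rises numbered 4, beside 6.12% of all genes. The homeobox genes Rhox9 and Rhox6 stood at 11.28 and 10.66 and at 11.98 and 11.34 in embryoid bodies, with differences of 5.71 ± 0.45 and 5.49 ± 0.48. Plac1 rose by 4.81, and the AP-2 factors Tfap2c and Tfap2a by 2.69 and 1.84. Ascl2 rose by 0.75 (adjusted p = 0.049, and 0.13 after quantile normalization; limma). Slc2a3, a glucose transporter also found in ES cells, was called lower (-1.45), but not after quantile normalization.

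The keratins of simple epithelia rose: Krt7 by 4.26, Krt18 by 3.43, Krt19 by 2.90 and Krt8 by 2.65. In ES cells labelled Bmi1 these genes were uneven between arrays, Krt18 at 7.69 and 9.17 and Krt8 at 8.59 and 10.06, whereas in embryoid bodies they were at 11.68 and 12.04 and at 11.86 and 12.08. Epcam, an adhesion protein of ES cells and epithelia, fell by 2.35, from 12.13 and 12.32 to 9.60 and 10.16. Over the list 5 of 15 genes were called higher, beside 21.2% of all genes, and 2 lower, Epcam and Krt17, beside 38%. Cgn, a tight junction protein, had a difference of -0.01 ± 0.27 and was not called.

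Of 15 neural genes tested, 7 were called lower, beside 38% of all genes, and 2 higher, beside 21.2%. Of the falls 5 were large, beside 5.92% of all genes. The median was -1.53, and -1.75 after quantile normalization, where none was called higher. The ES cells labelled Bmi1 held several neuronal cytoskeleton genes at high levels. Nefl was at 10.97 and 11.85 in ES cells and at 6.75 and 7.45 in embryoid bodies. Stmn2, a regulator of microtubules in growth cones, was at 11.64 and 11.47 against 7.05 and 8.32 (-3.88 ± 0.58). Nefm (-3.23), Tubb3 (-3.20) and Neurod1 (-3.43), a neuronal factor, fell too. In vector and control samples the differences were -2.63 for Nefl, -2.49 for Stmn2 and -0.28 for Nefm. Zic1 (2.39 ± 0.80) and Fabp7 (1.42 ± 0.47), genes of neural progenitors, were called higher, and both rested mainly on replicate 2: Zic1 was at 4.47 and 7.27, and Fabp7 at 5.63 and 6.82. Without replicate 2 neither was called (1.00 and 0.82), nor were they after quantile normalization. Pax3, at 6.29 and 5.39 against 5.87 and 5.72, was not called.

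Germ cell genes were called lower in 4 of 14, a smaller share than the 38% of all genes, and higher in 1 of 14, beside 21.2%. Ddx4, the vasa helicase, read 10.55 and 9.77 in ES cells and 6.50 and 6.98 in embryoid bodies (-3.42 ± 0.44). Piwil2 (-2.06), Tex11 (-1.61) and Zp3, at 5.18 and 4.85 against 6.29 and 5.75, were called lower, and Stra8, a retinoic acid-induced gene, rose by 1.35. Each of Piwil2, Tex11 and Zp3 lost its call when 1 array was left out, with highest adjusted p of 0.0792, 0.26 and 0.0673 (limma). Prdm1, at 6.52 and 7.29 against 6.57 and 7.09, was not called.

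Hox genes, which give cells their position along the body axis and are classical Polycomb targets, rose modestly. Of 33 named on the array, 15 were too dim to test. Of the 18 tested 12 were called higher and none lower, beside 21.2% and 38% of all genes. Large rises numbered 3, beside 6.12% of all genes. The tested members' mean level in ES cells was 5.25 and 5.26, below the arrays' medians of 5.57 and 5.61, so the filter partly fixed the direction of these calls. The median was 1.30, and 0.97 after quantile normalization. Hoxd10 (2.45), Hoxc10 (2.28) and Hoxa11 (2.13) rose most, and all are posterior genes. Hoxd10 was at 5.78 and 5.67 in embryoid bodies, below the arrays' median, against 3.22 and 3.33. Hoxb2 rose by 1.67, Hoxd11 by 1.65 and Hoxd8 by 1.63. For Hoxa9 the brightest probe set read 6.93 and 6.30 against 6.55 and 6.62, while its probe sets ran from 0.03 to 3.97.

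Signalling genes moved both ways. Of 19 tested genes of Nodal, BMP and TGF-beta signalling, 11 were called higher and 4 lower, beside 21.2% and 38% of all genes. The ligands that rose included Bmp5 from 3.31 and 3.19 to 8.10 and 8.69 (5.15 ± 0.35), Bmp2 by 3.94, Tgfb2 by 3.58 and Tgfb3 by 2.81. The TGF-beta-induced matrix protein Tgfbi rose by 4.38. Nodal, which ES cells make themselves, fell by 2.30, as did Bmp4 (-1.47) and the feedback targets Id1 (-2.96) and Smad7 (-1.45). Bmp4 was not called after quantile normalization. Id4, at 7.75 and 8.64 against 8.46 and 8.58, was not called.

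In the FGF and Notch list 8 of 23 genes were called lower and 6 higher, shares near the 38% and 21.2% of all genes. Among those called lower were Fgf17 (-3.21), the ETS factor Etv4 (-2.85), Spry4 (-2.70) and the ERK phosphatase Dusp6 (-2.31). Dusp6, at 8.32 and 9.87 against 11.25 and 11.56, was not called after quantile normalization (adjusted p = 0.056, limma). The genes that rose were the receptors Fgfr2 (2.04) and Fgfr3 (1.60), Notch2 (1.03) and its ligand Jag1 (1.33), and the Notch targets Hey2 (2.37) and Hey1 (0.99). Notch4, at 5.43 and 6.10 against 6.09 and 5.42, was not called. Of 18 Wnt genes 7 were called higher and 1 lower, beside 21.2% and 38% of all genes. The receptor Fzd1 rose from 5.57 and 5.72 to 10.04 and 10.11 (4.43 ± 0.19), the secreted inhibitor Dkk1 by 3.99, and the ligands Wnt2, Wnt5a and Wnt11 by 3.49, 3.01 and 1.94. Fzd5 was called lower (-2.15), but not after quantile normalization, and Wnt3a, at 6.23 and 5.54 against 5.73 and 6.01, was not called.

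Imprinted genes, which are expressed from 1 parental copy and many of which act in fetal growth, rose. Of 17 tested, 10 were called higher, 7 of them large rises, and 2 lower. Among all genes 21.2% were called higher, 6.12% were large rises and 38% were called lower. After quantile normalization 13 were called higher, beside 24% of all genes. Igf2, the fetal growth factor, stood at 13.58 and 13.67 in embryoid bodies, among the brightest genes, against 7.27 and 8.21 in ES cells (5.88 ± 0.31). Dlk1, a growth regulator of the Notch ligand family, rose by 4.21, Peg3 by 2.88, Sgce by 2.84 and Peg10 by 2.64. Grb10, an inhibitor of insulin signalling, fell by 2.82, from 10.43 and 10.26 to 7.06 and 8.00, and its difference was -0.51 in vector and control samples. Snrpn was called lower as well (-0.61). Phlda2, at 12.24 and 11.76 against 12.24 and 12.04, was not called.

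The binding proteins and RNA regulators around Igf2 moved both ways. Igf2bp3, an RNA-binding protein of fetal tissue, rose by 3.23 ± 0.37, Igfbp4 by 2.29, Igf1 by 2.19 and the receptor Igf1r by 1.80. Lin28a, which blocks let-7 maturation, was at 6.29 and 8.36 against 11.24 and 11.45 (-4.02 ± 1.14; limma, adjusted p = 0.02), and 1 of its probe sets had a difference of 0.53. Without replicate 1 of the embryoid bodies its difference was -2.98 and was not called. Igfbp3 fell by 1.54, and Igfbp2 was called lower (-1.35), but not after quantile normalization. Igfbp5 read 8.91 and 8.25 against 8.59 and 8.53 on the brightest probe set, and its probe sets ran from 0.02 to 7.01.

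Interferon-inducible genes rose as well. Of 15 tested, 14 were called higher, 9 of them large rises, and 1 lower. Among all genes 21.2% were called higher, 6.12% were large rises and 38% were called lower. The median was 3.12, and 3.02 after quantile normalization, where 14 were again called higher. Rtp4 read 10.63 and 10.20 against 3.86 and 3.54, and Usp18, which removes ISG15 from proteins, 10.21 and 9.90 against 3.54 and 3.37. In ES cells both lay below the arrays' medians of 5.57 and 5.61. For members as dim as these the filter partly fixed the direction of the call. Ifi35 rose by 5.74 ± 0.19, Ifit1, which binds foreign RNA, by 5.30 ± 0.29, Ifih1 (MDA5), a sensor of double-stranded RNA, by 4.90 ± 0.28 and Oasl2 by 4.77 ± 0.31. Bst2 (tetherin) was called higher by 0.56, a call lost without any 1 of 6 of the 8 arrays (highest adjusted p = 0.171, limma) and with the replicate block. Ifitm3, a membrane protein already at 11.44 and 11.78 in ES cells, was called lower as deposited (-0.67) and had a difference of 0.28 after quantile normalization.

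Genes induced by interferon often carry an interferon-stimulated response element, so the windows before these genes were searched on both strands for GAAA followed by any 2 bases and a further GAAA, with overlapping matches allowed. It was found in 4 of the 12 list members with an entry in the RefSeq table (33.3%), in 2.43% of all tested genes with an entry, in 6.86% of the large rises and in 1.88% of the large falls. Stretches of 60 bases with the match in capitals are shown for the members that held it, since they show where the letters lie; on the opposite strand the match reads TTTC, any 2 bases, TTTC.
Ifit1, chr19:34640770-34640829, plus strand: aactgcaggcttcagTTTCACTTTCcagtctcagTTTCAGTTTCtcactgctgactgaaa
Ifit3, chr19:34583358-34583417, plus strand: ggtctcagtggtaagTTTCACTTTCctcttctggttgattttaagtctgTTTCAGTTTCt
Stat2, chr10:128270261-128270320, plus strand: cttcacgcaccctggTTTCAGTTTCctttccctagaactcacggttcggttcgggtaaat
Bst2, chr8:71537558-71537617, minus strand: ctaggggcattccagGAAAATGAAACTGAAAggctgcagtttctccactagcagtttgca
Ifit1 and Ifit3 hold 2 separate matches, Stat2 holds 1 and Bst2 holds 2 that overlap. These matches begin 104 bases (Ifit1), 156 bases (Ifit3), 222 bases (Stat2) and 130 bases (Bst2) before the start. The 4 genes with a match had differences of 5.30 (Ifit1), 3.165 (Ifit3), 1.44 (Stat2) and 0.56 (Bst2). Members without a match included Ifi35 (5.74), Ifih1 (4.90), Oasl2 (4.77) and Ifitm3 (-0.67), and Rtp4 and Usp18 had no entry. Whether a match goes with the size of the difference was not tested.

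Genes of antigen presentation, many of which interferon also induces, rose less. Of 9 tested, 5 were called higher and 1 lower, beside 21.2% and 38% of all genes. B2m, the light chain of class I molecules, was at 12.09 and 11.65 against 10.39 and 10.00 (1.68 ± 0.30). The immunoproteasome subunit Psmb8 rose by 2.03, Tapbp by 1.65, H2-D1 by 1.28 and the peptide transporter Tap1 by 1.11, while the subunit Psmb10 fell by 2.48. H2-K1, at 10.17 and 10.06 against 10.60 and 9.97, was not called.

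Replication and mitosis genes were lower as deposited: 18 of 21 were called lower, beside 38% of all genes, and none higher, with a median of -1.36. Mcm3, of the replicative helicase, fell by 2.25, and so did Birc5 (survivin, -2.10), the kinases Plk1 (-1.86) and Aurkb (-1.66), and the cyclins Ccna2 (-1.54) and Ccnb2 (-1.53). This list depended on the array distributions. After quantile normalization 7 were called lower and 2 higher, beside 26.8% and 24% of all genes, and the median was -0.39. Birc5 was then at -1.24 and Ccnb2 at -0.67. Mki67, at 10.90 and 11.31 against 11.12 and 11.59, was not called as deposited and was called higher after quantile normalization (0.69).

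Housekeeping genes showed the same dependence, with 8 of 11 called lower as deposited (median -0.86) and 4 after quantile normalization (median -0.12). Among all genes 38% and 26.8% were called lower on these scales. Ywhaz was called lower on both scales (-2.32 and -1.34), as were Hprt (-1.86 and -0.91) and Rplp0 (-1.74 and -0.82). Tubb5 was called lower as deposited (-1.05) and not after quantile normalization (-0.12). B4galt1 was called higher on both (0.90 and 1.43), and Eef1a1, at 14.31 and 14.31 against 14.69 and 14.67, was not called. Polr2a fell by 2.30 on its brightest probe set, with another at 0.74. Of 14 genes of glycolysis and hypoxia, 3 were called higher, near the 21.2% of all genes, and 4 lower, beside 38%. Bnip3 (2.36), Vegfa (2.25) and the oxygen sensor Egln3 (1.86) rose, and Pgam1 (-1.94), Hk2 (-1.80) and Ldha (-1.74) fell. Pfkl, at 8.58 and 9.04 against 8.67 and 8.89, was not called.

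**Figure D4:**
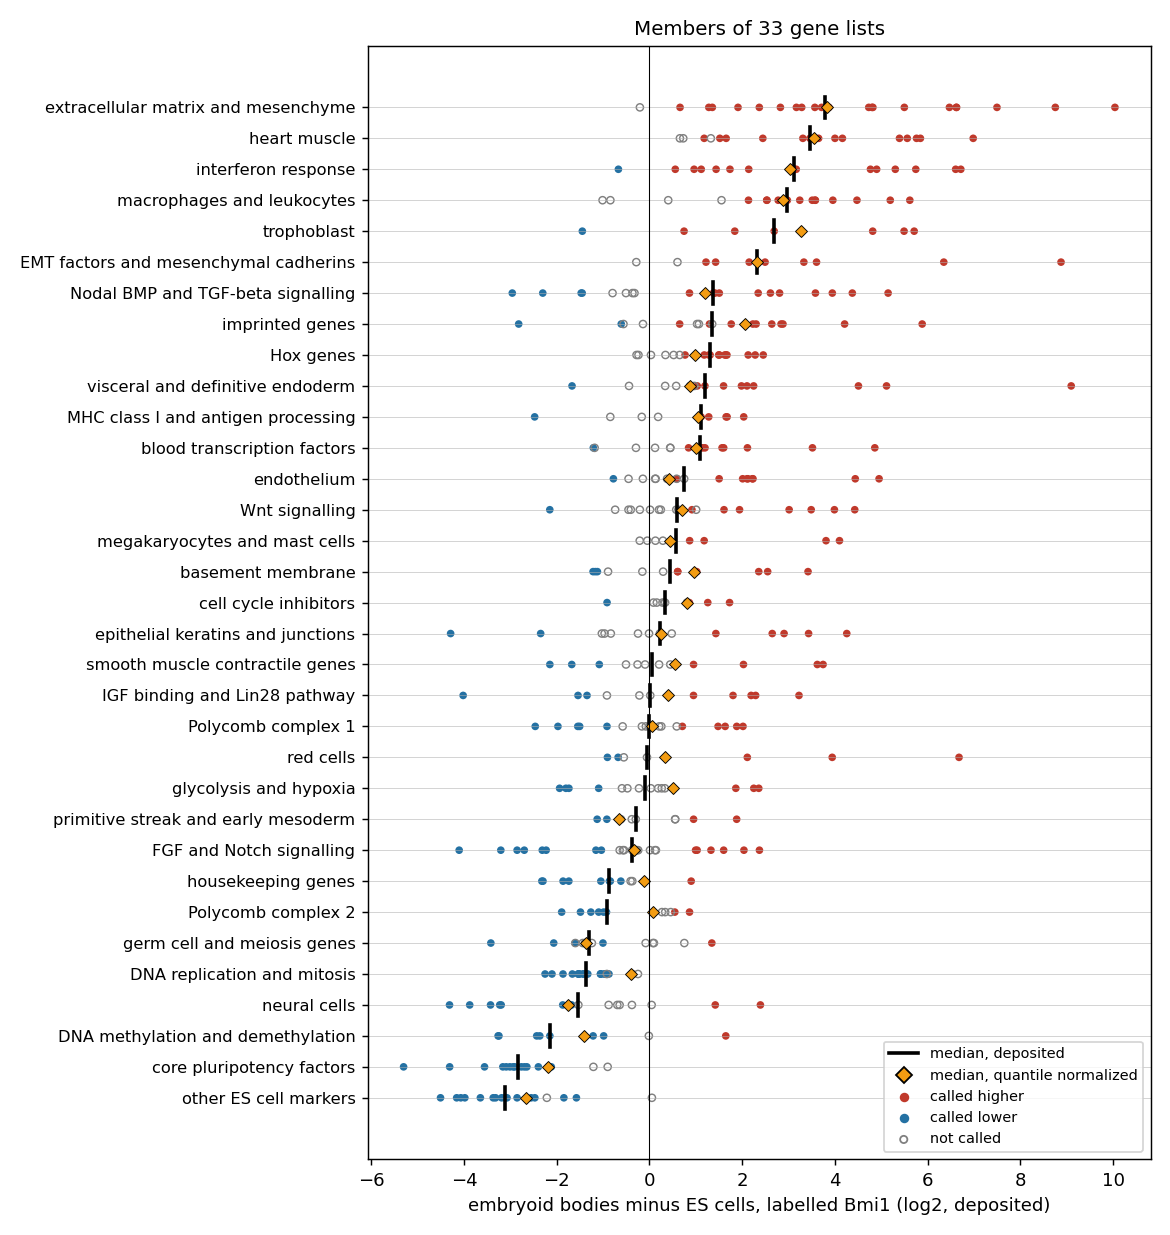
Difference between stages in samples labelled Bmi1 (log2, deposited) of each tested member of 33 gene lists, ordered by median; red and blue dots are members called higher and lower, open circles members not called, black bars the deposited medians and orange diamonds the medians after quantile normalization. Matrix (3.79), heart muscle (3.46) and interferon (3.12) genes stand at the top and ES cell markers (-3.11) and core pluripotency factors (-2.83) at the bottom, while for housekeeping genes the diamond (-0.12) is apart from the bar (-0.86).

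The same passage was measured in vector and control samples, where the difference between stages could be set beside that of the samples labelled Bmi1. Of the 1563 large changes, 1225 had a difference of at least 2 log2 units in the same direction there. The difference between the 2 differences was tested in the same limma fit, and no gene passed (0 of 12982, 0%; 887 had an unadjusted p under 0.05). With a term for the embryoid body array set, 107 genes passed, 46 with a greater and 61 with a lesser difference in samples labelled Bmi1. Without replicate 2 of the vector embryoid bodies 100 passed. Individual values are therefore given side by side as a description. Serpinb9g rose by 8.39 in samples labelled Bmi1 and by 3.93 in vector and control samples (interaction adjusted p = 0.23, and 0.021 with the array set term; limma). In all 15 interferon genes the difference was greater in samples labelled Bmi1, by a median of 1.42, and 7 of them passed with the array set term; over all genes 42.8% were greater. Usp18 rose by 6.60 and 5.03 and Ifi35 by 5.74 and 3.62. Heart muscle genes were greater in 14 of 17, Myh6 at 5.56 and 2.83 and Myl2 at 4.16 and 1.46, and trophoblast genes in 6 of 7. Endothelial genes were greater in 1 of 17, with Emcn at 4.44 and 5.45, and smooth muscle genes in 1 of 12. The embryonic globins rose by 6.68 and 8.04 (Hbb-y), 3.94 and 5.82 (Hbb-bh1) and 2.11 and 3.83 (Hba-x).

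**Figure D5:**
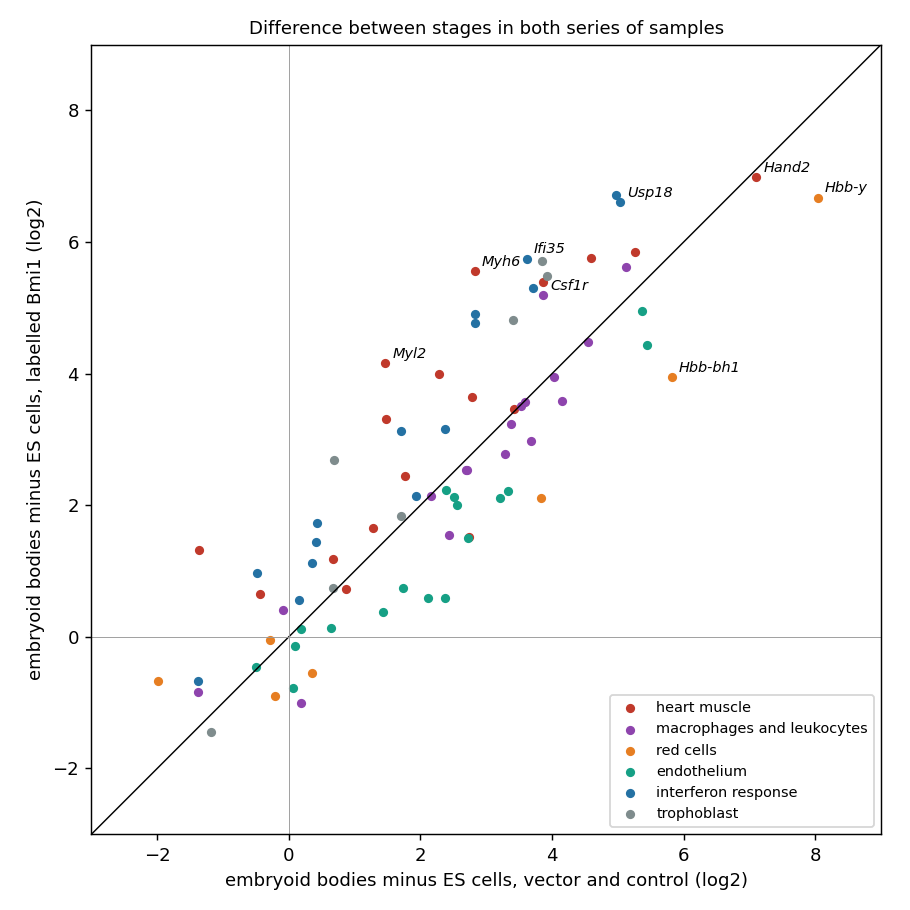
Difference between stages (log2) in samples labelled Bmi1 against that in vector and control samples for the tested members of 6 lists; each point is a gene and the black line marks equal differences. Interferon genes lie above the line (15 of 15), as do 14 of 17 heart muscle genes, while 1 of 17 endothelial genes does. No gene passed the main test of the difference. With a term for the embryoid body array set 107 of all genes passed, 7 of them interferon genes.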

How the data were processed

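Expression was measured on 8 Affymetrix mouse arrays. The deposited values are log2 levels per probe set, made by the authors with RMA per the submitters' processing notes; the version, and which arrays were summarised together, are not given in the sources used here. Of 45101 rows, 64 array controls were left out. Of the rest, 34945 probe sets had 1 gene symbol in the platform annotation, 932 several and 9160 none. Each of 18193 genes was represented by its brightest probe set on average over the 8 arrays, and 12982 genes above the array median on at least 2 arrays were tested. A gene dim in ES cells passes mainly where it is brighter, so in any list the filter partly fixed the direction of such members' calls.

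A model with 1 mean for each of the 4 groups was fitted to all 8 arrays with limma 3.58.1 in R 4.3.3, with Benjamini-Hochberg adjustment over all genes tested and a threshold of 0.05. It was tested on simulated data with independent noise and no array set effect, so that test does not cover such effects in these data. Deviations from the group means correlated at 0.72 between same-numbered embryoid bodies of the 2 series, which share an array set, and at 0.03 between same-numbered embryoid bodies and ES cells labelled Bmi1, so the numbers did not pair the stages. Promoter windows came from a RefSeq table of build GRCm38.p6.

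Genes named are Bmi1, the 20 largest rises and falls, and from each of 33 lists up to 6 called members with the largest differences, those called against the list's direction and those with the smallest difference; Ifit3 and Stat2 were added for their promoter match. The 33 lists held 580 entries, of which 539 were named on the array, 468 were tested and 71 were too dim. The comparison and the lists were chosen with earlier results of these data known. Alternatives varied the filter, the probe set per gene, the scaling, the prior, the blocks and the arrays included.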

Additional observations from a re-analysis of the deposited data

How the results depend on the processing

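The counts kept their size within 1.5 times under most alternatives; those that did not are given here. With every probe set tested on its own 12774 were called, 4790 higher and 7984 lower, and 2789 were large changes, 1426 rises and 1363 falls, which has more features by construction. With a filter at the 75th percentile 1502 genes were called higher and 500 were large rises, since fewer genes were tested. Large falls numbered 456 after quantile normalization, 1339 after median centring and 406 in both deposited and quantile-normalized values. A threshold of 1 log2 unit gave 5235 large changes (1888 rises, 3347 falls) and one of 3 gave 496 (372 and 124). Leaving out 1 array gave 5236 to 8496 genes called (1846 to 3095 higher, 3345 to 5401 lower) and 1343 to 1857 large changes (756 to 800 rises, 543 to 1071 falls). The difference between the 2 series of samples gave 1 gene with the mean of probe sets, 107 with a set term for embryoid bodies, and 0 to 100 without 1 array. With the replicate block, over the 6 arrays with a numbered replicate, 7765 genes were called and 1569 were large changes; of the named genes, Bst2 and Ezh1 lost the call, and the replicate block changed no other call among them. Among the 258 named genes, 230 of them called, quantile normalization turned the sign of Ifitm3 (0.28), Mki67 (0.69) and Tfrc (0.35), and the mean of probe sets that of Tfrc (1.22); the cause was not tested. Quantile normalization also ended 19 calls and median centring 10. The calls of 45 named genes were lost when at least 1 array was left out, with their highest adjusted p at 0.05 to 0.26 (limma): Ascl2, B4galt1, Bmp4, Bst2, Cnn2, Dnmt1, Dnmt3b, Dusp6, Egfl7, Epcam, Eras, Esrrb, Etv5, Etv6, Ezh1, Ezh2, F2r, Fabp7, Foxa2, Fzd5, H2-D1, Ifitm3, Igfbp2, Ikzf1, Itga2b, Jag1, Klf1, Krt8, Lama5, Lamc1, Lin28a, Mesp2, Nanog, Notch2, Pcgf1, Phf19, Piwil2, Rbp4, Slc2a3, Smtn, Snrpn, Tex11, Tfrc, Zic1 and Zp3. No named gene that was called turned its sign without 1 array. With 2 arrays a group, the number of arrays limits the precision, and the deposited values hold no background signal to set a limit for dim genes.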

Other observations

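Probe sets without a single symbol also changed between the stages of the samples labelled Bmi1. Of 9160 probe sets with no symbol, 2756 were bright enough to test, and 177 were large rises and 102 large falls, together 10.1%. Of 932 with several symbols 625 were tested, with 33 large rises and 52 large falls (13.6%).

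The 1563 large changes rest on 1 probe set a gene, and 686 of these genes had at least 1 other bright probe set, 1136 probe sets in all. Of these, 867 (76.3%) moved the same way by at least 1 log2 unit, 198 (17.4%) the same way by less, 59 (5.19%) the other way without a call and 12 (1.06%) the other way with a call. For genes with large falls, 373 (66.6%) moved the same way by at least 1 log2 unit and 11 (1.96%) the other way with a call.

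The 17 genes called lower as deposited and higher after quantile normalization were Arf1, Atp5o, Csnk2a2, Eif3e, Hpf1, Hspa5, Lsm14a, Ndufc1, Ndufc2, Nsa2, Ppp2ca, Rab2a, Rabggtb, Rtraf, Sdhb, Snx3 and Ube2e1, named after their values were seen.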
